A study of Mus musculus with 12 samples.

Results

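Axon guidance in the nervous system is directed by 4 systems of secreted or membrane-bound cues and their receptors, and the same molecules guide growing blood vessels. They are the semaphorins with their plexin receptors, the Slits with the Robo receptors, the netrins with the Unc5 receptors, and the ephrins with the Eph receptors. The genes of these families were taken by symbol from the array annotation. Measured values did not enter that rule, but the families were chosen with earlier results of these data known. The rule gave 66 of the 19938 genes that had a symbol of their own. They were 20 semaphorins, 9 plexins, 7 Slits and Robos, 9 netrins and Unc5 genes, 13 Eph receptors and 8 ephrins. One of them, Unc5cl, was taken for its prefix and is not a netrin receptor, and Ephb2 is not analysed here.

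The islets came from 8-week-old RIP1-Tag2 mice on the C57BL/6 background, in which the insulin promoter drives the SV40 large T antigen in pancreatic beta cells. All arrays therefore carried the transgene, and non angiogenic islets are not normal islets. Islets were isolated with collagenase and a density gradient, sorted by their appearance as angiogenic or non angiogenic, and pooled. Each group held 6 arrays, each of 1 pool of whole islets. Neither the number of mice in a pool nor whether pools shared mice is stated, so each p-value reflects only how far these pools spread, which may in part be technical.

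Levels are the deposited log2 signals, so that a difference of 1 between groups is a doubling, and differences are given as angiogenic minus non angiogenic islets. Array medians lay between 7.30 and 7.38. A gene is called higher or lower where limma's test gave an adjusted p under 0.05 over all genes. The 10 beta cell markers averaged 11.73 to 11.87 in the 6 angiogenic and 11.74 to 11.98 in the 6 non angiogenic arrays. By limma, 1 was called lower, none higher and 9 were not called. Before adjustment, 1 was higher and 3 were lower. Replicates 1 to 3 stood apart from replicates 4 to 6 in a fit over all 12 arrays with the group in the model. The level differed between these sets in 36.9% of all genes and in 20 of the 66 guidance genes (30.3%). Of the 20, 4 had the higher level in replicates 4 to 6, against 3597 of the 7349 such genes over all genes. The sets were not tested within each group. The study describes 2 profiling experiments, but the labels do not say which arrays came from which, so whether the sets are those experiments is not known. Both sets held 3 arrays of each group, so each difference could also be taken within a set. With the set in the model, 3 of the 10 beta cell markers were called lower and none higher.

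Markers of several stromal cell types moved with the groups. The marker lists were chosen with earlier results of these data known. Some of the markers, such as Pecam1, Acta2 and Csf1r, were reported by the study as up-regulated in these same arrays. The counts of stromal markers are therefore not independent evidence. Endothelial markers were higher in the angiogenic pools for 19 of 25, with a mean of 8.98 to 9.16 in the 6 angiogenic and 8.53 to 8.68 in the 6 non angiogenic arrays. Pericyte and smooth muscle markers were higher for 12 of 14, with a mean of 8.32 to 8.67 in the 6 angiogenic and 7.72 to 7.88 in the 6 non angiogenic arrays. Fibroblast markers were higher for 11 of 13, with a mean of 8.81 to 9.09 in the 6 angiogenic and 7.79 to 8.17 in the 6 non angiogenic arrays. Macrophage markers were higher for 10 of 15, with a mean of 8.01 to 8.37 in the 6 angiogenic and 7.63 to 7.87 in the 6 non angiogenic arrays. Schwann cell markers, which bear on genes named for nerves, averaged 6.65 to 6.72 in the 6 angiogenic and 6.62 to 6.74 in the 6 non angiogenic arrays, with none of 7 called in either direction and none at an unadjusted p under 0.05. Acinar markers of the surrounding exocrine pancreas had means of 7.80 to 10.39 in the 6 angiogenic and 7.67 to 11.38 in the 6 non angiogenic arrays, a wide range within both groups, and none of 10 was called or passed an unadjusted p under 0.05. Of the remaining lists, 1 of 5 lymphatic endothelial markers was higher, 2 of 7 markers of other islet endocrine cells were lower, and none of 9 neutrophil, 6 lymphocyte and 5 ductal markers was called by limma. Before adjustment, 1 neutrophil and 1 lymphocyte marker had a p under 0.05 in each direction, and no ductal marker did. In pooled islets, more cells of a type and more RNA per cell cannot be told apart, and the part of these cell types in the differences below was not tested.

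As background, repulsive cues collapse the growth cone of an axon or the filopodia of an endothelial tip cell, and attractive ones stabilise it. Semaphorins of class 3 are secreted and mostly need a neuropilin co-receptor beside a plexin, Slits bind the Robo receptors Robo1 and Robo2, and netrins are attractive through Dcc and neogenin and repulsive through Unc5 receptors. Ephrins and Eph receptors are both held in the membrane and signal in both directions on contact, with ephrin-B2 known for arterial and EphB4 for venous endothelium.

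Of the 66 guidance genes, 15 were higher in angiogenic islets (22.7%), against 3.55% of all genes tested. None was lower, against 0.948% of all genes. Before adjustment, limma's p was under 0.05 for 24 guidance genes in the higher and 3 in the lower direction, against 7.76% and 6.59% of all genes. By the methods' t-test after Benjamini-Hochberg adjustment, 12 were higher and 1, Sema3e, was lower, against 2.94% and 0.903% of all genes. The median difference over the 66 genes was 0.04, and over all genes -0.02. Differences ranged from -0.21 to 0.84, with 43 above and 23 below 0, so that 65.2% were above 0, against 40.1% of all genes.

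The 6 angiogenic arrays lay entirely above the 6 non angiogenic ones for 12 of the 66 genes, against 2.85% of all genes. These 12 were among the 15 called genes, and the groups overlapped for the other 3, Plxnc1, Sema5a and Sema3f. No guidance gene lay entirely lower, against 0.923% of all genes. When the set entered the model as a block, the 15 calls stood, and 18 genes were higher and 2 lower, against 5.88% and 2.74% of all genes. Within replicates 1 to 3 alone, 8 genes were called higher, against 2.37% of all genes, and within replicates 4 to 6 alone 12, against 3.11%. Of the 15, Epha3, Epha4, Ephb4, Slit2, Plxnc1 and Sema5a had a mean level under the median of all genes, so that 6 of 36 dimmer and 9 of 30 brighter guidance genes were higher, against 2.73% of the dimmer and 4.37% of the brighter genes of the array. Slit2, Slit3, Plxnd1 and Sema6a are named among the deregulated genes that the study drew from these same arrays, so their calls are not independent evidence. Of the other 62 genes, 11 were called higher. The study's printed table holds only the genes of its list that encode matrix and matrix-associated proteins. Whether any of the other 62 were on the full list is not known here.

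**Figure D1:**
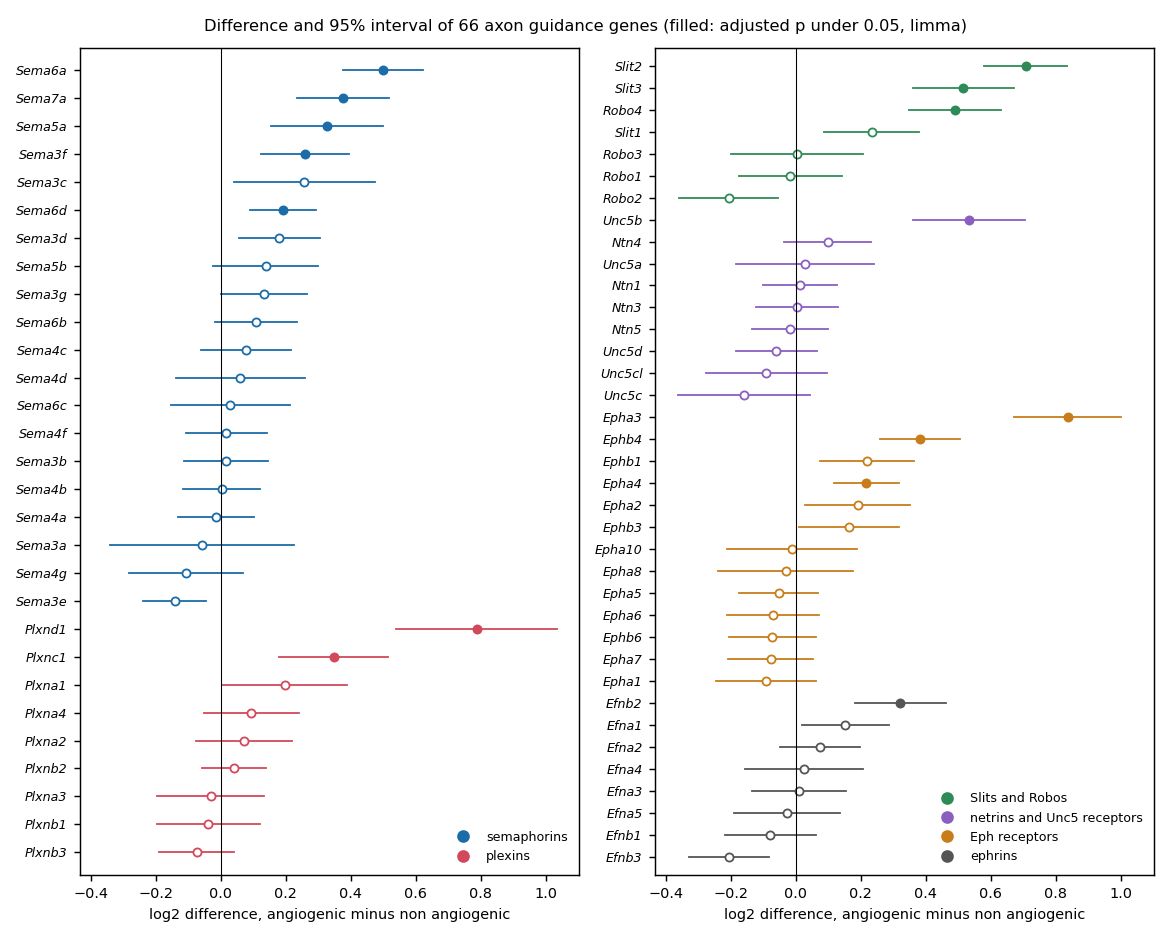
Difference in log2 level between angiogenic and non angiogenic islets (horizontal axis) of each of the 66 guidance genes, grouped by family, with 95% intervals from limma over 6 and 6 arrays. Filled points mark the 15 genes with an adjusted p under 0.05, all to the right of 0, from Epha3 at 0.84 to Sema6d at 0.19.

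Among the Slits and Robos, 3 of 7 genes were higher in angiogenic islets: 2 of 3 Slits, the secreted ligands, and 1 of 4 Robo receptors. The median difference of these 7 genes was 0.23. Slit2, the ligand with the largest difference, and Robo4, the single receptor called, are shown as one gene of each role, by the 250 bases before their RefSeq start sites (GRCm38.p6). The first is at chr5:47982905-47983154 (plus strand) and the second at chr9:37401722-37401971 (plus strand), each read 5′ to 3′ on the strand of the gene, and capitals mark the GC box GGGCGG on either strand.

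Slit2: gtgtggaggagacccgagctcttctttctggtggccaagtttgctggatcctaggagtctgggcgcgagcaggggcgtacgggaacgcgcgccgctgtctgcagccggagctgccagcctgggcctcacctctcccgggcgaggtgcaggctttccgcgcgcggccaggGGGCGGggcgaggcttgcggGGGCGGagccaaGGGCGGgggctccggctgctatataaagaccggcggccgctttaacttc
Robo4: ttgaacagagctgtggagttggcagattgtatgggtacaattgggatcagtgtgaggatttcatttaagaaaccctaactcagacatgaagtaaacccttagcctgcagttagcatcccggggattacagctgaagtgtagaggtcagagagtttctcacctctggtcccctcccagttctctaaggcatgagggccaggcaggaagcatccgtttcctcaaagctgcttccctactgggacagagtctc

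The Slit2 window had a GC content of 69.6% and held 3 GC boxes, whereas that of Robo4 had 49.6% and held none. Slit2, a ligand of Robo1 and Robo2, had lowest, median and highest log2 levels of 7.10, 7.35 and 7.43 in angiogenic islets and 6.50, 6.62 and 6.69 in non angiogenic islets. Every angiogenic pool was thus above every non angiogenic pool. The difference was 0.71 (SE 0.06), a 1.63-fold higher level (limma, adjusted p = 5.33e-06), with 0.75 in replicates 1 to 3 and 0.67 in replicates 4 to 6. Slit3, the related ligand known also from smooth muscle and endothelium, had levels of 8.22, 8.46 and 8.64 in angiogenic islets and 7.84, 7.92 and 8.01 in non angiogenic islets, again without overlap. Its difference was 0.52 (SE 0.07), or 1.43-fold (limma, adjusted p = 5.08e-04), and was nearly equal in the 2 sets at 0.50 and 0.53.

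The third ligand, Slit1, is best known from the nervous system. It had levels of 10.21, 10.32 and 10.42 in angiogenic islets and 9.90, 10.08 and 10.32 in non angiogenic islets, with overlapping groups and a difference of 0.23 (SE 0.07) that missed the threshold (limma, adjusted p = 0.0763) and passed it with the set as a block (adjusted p = 0.0152). Robo4, the Robo of endothelial cells, read 8.81, 8.93 and 9.11 in angiogenic islets and 8.22, 8.45 and 8.58 in non angiogenic islets, without overlap. It was 1.41-fold higher, with a difference of 0.49 (SE 0.07, adjusted p = 3.44e-04 by limma). The values within the sets were unequal, 0.62 in replicates 1 to 3 and 0.36 in replicates 4 to 6.

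The Robo receptors known to bind Slits did not pass the test. Robo1 had a difference of -0.02 (95% interval -0.18 to 0.14), and its sign turned in replicates 1 to 3 alone (0.01). Robo2 had levels of 10.32, 10.59 and 10.66 in angiogenic islets and 10.59, 10.81 and 10.90 in non angiogenic islets, and its difference of -0.21 (SE 0.07) was the most negative in this family (limma, adjusted p = 0.146, or 0.0458 with the set as a block). Robo3, a receptor of commissural axons, had a difference of 0.00 (-0.20 to 0.21). Slit2, Slit3 and the endothelial Robo4 were thus higher in angiogenic islets, while the Slit-binding receptors Robo1 and Robo2 had differences at or below 0 that did not pass the test.

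Among the ephrins and Eph receptors, 1 of 8 ephrins and 3 of 13 Eph receptors were higher in angiogenic islets, with median differences of 0.02 and -0.01. The arterial ligand Efnb2 and the venous receptor Ephb4, which bind each other, were both among them. The 250 bases before their start sites, at chr8:8661243-8661492 (minus strand) and chr5:137349859-137350108 (plus strand) of GRCm38.p6, are shown as the promoters of this ligand and receptor pair, again with GC boxes in capitals.

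Efnb2: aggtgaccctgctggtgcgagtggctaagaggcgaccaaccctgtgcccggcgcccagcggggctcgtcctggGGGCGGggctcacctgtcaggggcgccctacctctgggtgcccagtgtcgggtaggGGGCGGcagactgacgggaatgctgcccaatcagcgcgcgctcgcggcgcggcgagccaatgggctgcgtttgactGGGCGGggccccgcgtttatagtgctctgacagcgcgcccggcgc
Ephb4: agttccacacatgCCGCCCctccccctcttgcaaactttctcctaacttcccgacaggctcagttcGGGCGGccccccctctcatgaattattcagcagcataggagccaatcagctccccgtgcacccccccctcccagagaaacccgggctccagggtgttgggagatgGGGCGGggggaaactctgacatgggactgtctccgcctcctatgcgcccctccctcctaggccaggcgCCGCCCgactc

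Both windows were rich in G and C, with 72.0% and 3 GC boxes for Efnb2 and 64.0% and 4 GC boxes for Ephb4. Efnb2 had lowest, median and highest levels of 8.65, 8.75 and 8.82 in angiogenic islets and 8.25, 8.40 and 8.64 in non angiogenic islets, so that the groups came close without overlap. It was 1.25-fold higher, with a difference of 0.32 (SE 0.07, adjusted p = 0.00899 by limma). That difference came to 0.23 in replicates 1 to 3, where the call was lost (adjusted p = 0.156), and to 0.42 in the other set. Its partner Ephb4 read 7.81, 7.90 and 8.04 in angiogenic islets and 7.43, 7.51 and 7.65 in non angiogenic islets, also without overlap. Ephb4 was 1.30-fold higher, with a difference of 0.38 (SE 0.06, adjusted p = 8.79e-04 by limma).

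The other B-type ephrins had differences on the opposite side of 0 that missed the threshold. Efnb3, best known from the nervous system, had levels of 7.39, 7.50 and 7.64 in angiogenic islets and 7.57, 7.73 and 7.82 in non angiogenic islets, and its difference was -0.21 (SE 0.06, adjusted p = 0.0621 by limma). It passed with the set as a block (adjusted p = 0.0215) and with angiogenic replicate 2 or non angiogenic replicate 6 left out (adjusted p = 0.041 in both). Efnb1 had a difference of -0.08 (95% interval -0.22 to 0.06). None of the 5 A-type ephrins, which are tethered to the membrane by a lipid anchor, passed the test. The A-type differences ranged from -0.03 for Efna5 to 0.15 for Efna1, the ligand of EphA2 known from inflamed endothelium, whose 95% interval was 0.02 to 0.29 (limma, adjusted p = 0.262).

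Of the 9 A-type Eph receptors, 2 were higher, and 1 of these, Epha3, had the largest difference of all 66 guidance genes. Epha3, a receptor of A-type ephrins, had levels of 6.42, 6.46 and 6.85 in angiogenic islets and 5.54, 5.67 and 5.82 in non angiogenic islets. Even the lowest angiogenic pool was 6.42 where the highest non angiogenic pool was 5.82. The difference was 0.84 (SE 0.08), or 1.79-fold (limma, adjusted p = 1.15e-05), with 0.74 in replicates 1 to 3 and 0.93 in replicates 4 to 6. Epha4, which binds ephrins of both types, had levels of 7.22, 7.39 and 7.46 in angiogenic islets and 7.13, 7.15 and 7.19 in non angiogenic islets, without overlap though with a small difference of 0.22 (SE 0.05), 1.16-fold (limma, adjusted p = 0.0128). With 3 arrays a group, within either set, the Epha4 call was lost (adjusted p = 0.232 and 0.0537).

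Epha2, a receptor known from tumor vessels, had a difference of 0.19 (95% interval 0.03 to 0.35; limma, adjusted p = 0.237). Ephb1 had a difference of 0.22 (SE 0.07) that missed the threshold (adjusted p = 0.0983) and passed with the set as a block (adjusted p = 0.0378), while another transcript cluster of the same gene had a difference of 0.05. The most negative Eph receptor was Epha1 at -0.09 (95% interval -0.25 to 0.06), and Epha7, a receptor with roles in the nervous system, was at -0.08 (-0.21 to 0.05).

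The semaphorins had 5 of 20 genes higher in angiogenic islets, with a median difference of 0.09. By structural class, these were 1 of 7 secreted class 3 semaphorins, 0 of 6 class 4, 1 of 2 class 5 and 2 of 4 class 6 transmembrane semaphorins, and Sema7a, the single lipid-anchored member. Of the 5, Sema6a and Sema7a kept their call whichever array was left out. The count of 5 fell whichever array was left out. It was 4 without non angiogenic replicate 3 or angiogenic replicate 4 or 5. It was 3 without non angiogenic replicate 1, 2 or 5 or angiogenic replicate 1 or 2. It was 2 without non angiogenic replicate 4 or 6 or angiogenic replicate 3 or 6.

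Sema6a, a transmembrane ligand of plexins A2 and A4, had lowest, median and highest levels of 8.35, 8.56 and 8.63 in angiogenic islets and 7.94, 8.01 and 8.11 in non angiogenic islets. The groups did not overlap, and Sema6a was 1.41-fold higher, with a difference of 0.50 (SE 0.06, adjusted p = 8.27e-05 by limma) that was nearly the same in the 2 sets, 0.49 and 0.51. Sema7a, which also acts on immune cells, had levels of 8.55, 8.63 and 8.81 in angiogenic islets and 8.06, 8.31 and 8.38 in non angiogenic islets, without overlap. It was 1.30-fold higher, with a difference of 0.38 (SE 0.07, adjusted p = 0.00298 by limma), of which 0.25 was seen in replicates 1 to 3 and 0.50 in replicates 4 to 6. Taken alone, replicates 1 to 3 did not pass (adjusted p = 0.0839).

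The other 3 called semaphorins were close to the threshold. Sema5a, a transmembrane semaphorin with thrombospondin repeats, had levels of 7.75, 7.86 and 8.15 in angiogenic islets and 7.40, 7.51 and 7.87 in non angiogenic islets. Non angiogenic replicate 3 lay within the angiogenic range. The difference was 0.33 (SE 0.08, adjusted p = 0.032 by limma), and the call was lost in 9 of the 12 fits that left out 1 array, all but those without non angiogenic replicate 3 or angiogenic replicate 4 or 5 (adjusted p up to 0.0757). Sema3f, the secreted ligand of neuropilin 2 known to repel endothelial cells, had levels of 8.79, 8.88 and 8.97 in angiogenic islets and 8.45, 8.62 and 8.80 in non angiogenic islets. Here the highest non angiogenic pool lay above the lowest angiogenic one. The difference of 0.26 (SE 0.06, adjusted p = 0.0301 by limma) was lost in 8 such fits, all but those without non angiogenic replicate 1 or 2 or angiogenic replicate 1 or 4 (adjusted p up to 0.0701). It also missed the threshold after centring each array on its median (adjusted p = 0.0548) or quantile normalization (adjusted p = 0.0991).

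Sema6d, a ligand of plexin A1, had levels of 10.39, 10.50 and 10.53 in angiogenic islets and 10.22, 10.27 and 10.37 in non angiogenic islets, without overlap. Its difference of 0.19 (SE 0.05) was the smallest among the called genes (limma, adjusted p = 0.0316). It was lost in 8 such fits, all but those without non angiogenic replicate 3 or 5 or angiogenic replicate 2 or 5 (adjusted p up to 0.0832), and after median centring (adjusted p = 0.0738).

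The secreted class 3 semaphorins most studied in vessels, other than Sema3f, did not pass the test. Sema3e, the ligand that binds plexin D1 without a neuropilin, had levels of 7.51, 7.54 and 7.58 in angiogenic islets and 7.56, 7.67 and 7.78 in non angiogenic islets, with a difference of -0.14 (SE 0.05, adjusted p = 0.108 by limma). By the methods' t-test its adjusted p was 0.0468. Sema3a, the prototype repellent acting through neuropilin 1, had levels of 6.38, 6.53 and 6.94 in angiogenic islets and 6.32, 6.66 and 7.09 in non angiogenic islets, and its difference of -0.06 had a wide 95% interval, -0.34 to 0.22. Sema3a differed more between the sets of arrays, by 0.39 with replicates 4 to 6 higher (limma, adjusted p = 0.00246), and leaving out 1 array moved its difference between -0.13 and 0.03.

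Sema3c had a difference of 0.26 (SE 0.10) and overlapping groups (adjusted p = 0.232). Sema3g, known from arterial endothelium, had 0.13 (SE 0.06, adjusted p = 0.343 by limma). Sema3d had 0.18 (SE 0.06, adjusted p = 0.116 by limma), and Sema3b 0.02 (-0.11 to 0.15). The 6 class 4 semaphorins, membrane ligands mostly of B-type plexins, ranged from -0.11 to 0.08, and none passed even an unadjusted p under 0.05 by limma.

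**Figure D2:**
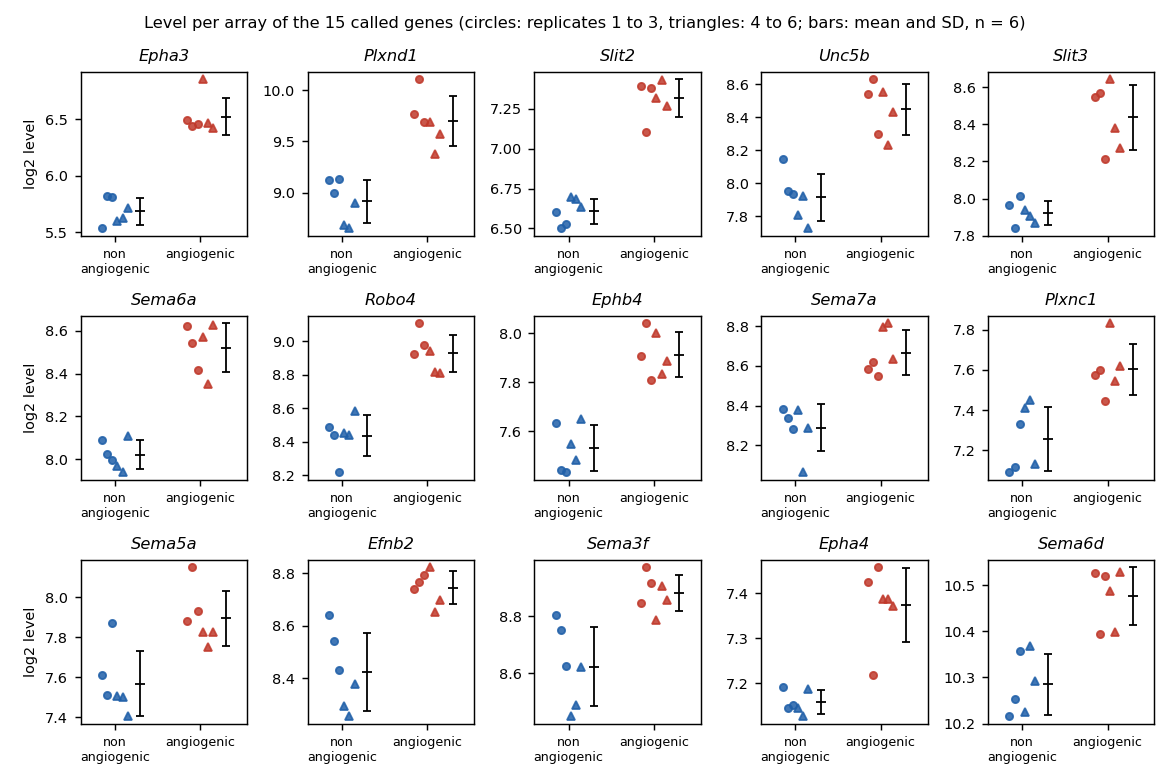
Log2 level (vertical axes, a scale of its own in each panel) of the 15 called genes in each of the 6 non angiogenic and 6 angiogenic arrays, with circles for replicates 1 to 3, triangles for replicates 4 to 6, and bars for the mean and SD. In 12 panels the groups do not overlap, and in those of Plxnc1, Sema5a and Sema3f they do.

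Of the 9 plexins, the signalling receptors of semaphorins, 2 were higher in angiogenic islets, with a median difference of 0.07 over the family. Plxnd1, the plexin of endothelial cells and the receptor of Sema3e, had lowest, median and highest levels of 9.38, 9.69 and 10.11 in angiogenic islets and 8.65, 8.94 and 9.13 in non angiogenic islets. The groups did not overlap although the level also differed between the sets, by -0.33 with replicates 4 to 6 lower (adjusted p = 0.00415). Plxnd1 was 1.73-fold higher, with a difference of 0.79 (SE 0.12, adjusted p = 7.11e-04 by limma), and by 0.77 and 0.80 within the sets.

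Plxnc1, the receptor of Sema7a and found on myeloid cells, had levels of 7.44, 7.59 and 7.83 in angiogenic islets and 7.09, 7.23 and 7.45 in non angiogenic islets. The overlap was slight, with the lowest angiogenic pool just below the highest non angiogenic one. Its difference was 0.35 (SE 0.08), or 1.27-fold (limma, adjusted p = 0.0188), and the adjusted p was 0.0517 by the methods' t-test. The sets each gave a like value, 0.36 and 0.33, that missed the threshold with 3 arrays a group (adjusted p = 0.0568 and 0.126).

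None of the 4 A-type and 3 B-type plexins passed the test. Plxna1 had the largest difference of these at 0.20 (SE 0.09, adjusted p = 0.326 by limma) and passed with the set as a block (adjusted p = 0.0341). Plxnb2, a receptor of class 4 semaphorins, had a difference of 0.04 (95% interval -0.06 to 0.14). Plxnb1, the receptor of Sema4d, had -0.04 (-0.20 to 0.12), and Plxnb3 the most negative value of the family, -0.07 (-0.19 to 0.04).

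Of the netrins and Unc5 genes, 1 of 9 was higher in angiogenic islets, with a median difference of 0.00. Unc5b, the netrin receptor of endothelial tip cells and arteries, had levels of 8.23, 8.49 and 8.63 in angiogenic islets and 7.73, 7.93 and 8.15 in non angiogenic islets. The groups came close, with non angiogenic replicate 1 the nearest to the angiogenic range, and did not overlap. Unc5b was 1.45-fold higher, with a difference of 0.53 (SE 0.08, adjusted p = 9.24e-04 by limma), and 0.48 and 0.59 within the sets.

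None of the 4 netrins measured here passed the test or an unadjusted p under 0.05 by limma. Ntn1, the classical secreted netrin, had levels of 7.15, 7.25 and 7.32 in angiogenic islets and 7.09, 7.21 and 7.37 in non angiogenic islets, with a difference of 0.01 (95% interval -0.10 to 0.13) that turned to -0.01 after median centring and in replicates 1 to 3. Ntn4, the netrin of vascular basement membranes, had a difference of 0.10 (-0.04 to 0.23), Ntn3 0.00 and Ntn5 -0.02. Among the other Unc5 genes, Unc5c had the most negative difference at -0.16 (-0.36 to 0.04), with -0.07 in replicates 1 to 3 and -0.26 in replicates 4 to 6. Unc5a had 0.03 (-0.19 to 0.24) and Unc5d -0.06 (-0.18 to 0.06).

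Set side by side as known ligands and receptors, the pairs took different forms. For Efnb2 and Ephb4 and for Sema7a and Plxnc1, ligand and receptor were both called higher. For Slit2 and Slit3 the ligands were called higher and the binding receptors Robo1 and Robo2 were not called in either direction. For Unc5b and Plxnd1 the receptors were called higher, and of their ligands the netrins and Sema3e were not called in either direction. Sema6a was called higher and its receptors Plxna2 and Plxna4 were not called. Likewise, Sema6d was called higher and its receptor Plxna1 was not. The receptor Epha3 was called higher, and none of the 5 A-type ephrins was called in either direction. Partners outside these families, given below, add to this picture. Of the Flrt ligands of Unc5 receptors, Flrt2 was called higher (0.49), Flrt1 was called lower (-0.33) and Flrt3 was not called. For Sema3f, called higher, the neuropilin Nrp2 that binds it was also called higher (0.57). Over the families as a whole, 8 of 35 ligands and 7 of 31 receptors were higher, with Unc5cl counted among the receptors for its prefix. Whether ligands and receptors moved together in the same cells cannot be read from whole islets.

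**Figure D3:**
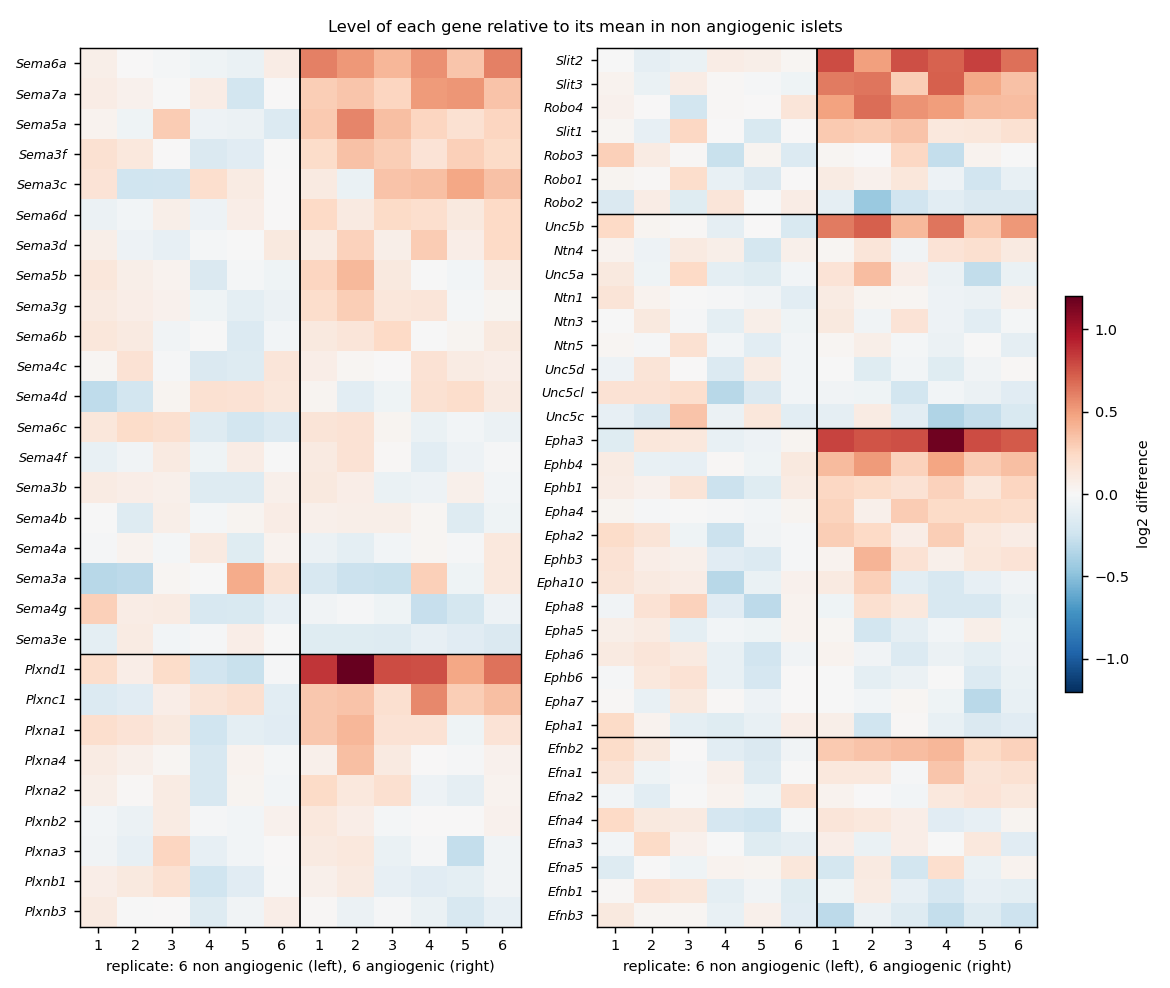
Log2 level of each of the 66 guidance genes in each array, as the difference from the gene's mean over the 6 non angiogenic arrays (colour, red higher and blue lower). Columns are replicates 1 to 6 of the non angiogenic (left of the line) and angiogenic islets (right), and rows are grouped by family in the order of their difference, with the strongest red in Epha3, Plxnd1 and Slit2.

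The 2 sets of arrays were next compared over all 66 genes. Replicates 1 to 3 had a median difference of 0.06 and replicates 4 to 6 one of 0.07, against -0.03 and -0.01 over all genes. The 15 called genes were above 0 in both sets, which the call over all arrays favours. Of the 66 genes, 45 had the same sign in both sets, against 12114 of all 19938 genes. Those with opposite signs were all among the genes not called. The widest apart of these was Unc5cl, at -0.28 and 0.10.

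**Figure D4:**
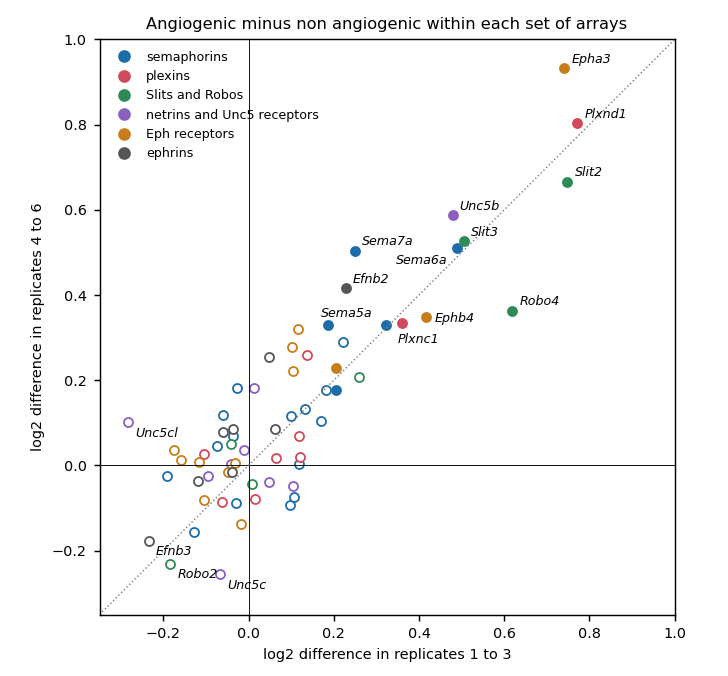
Log2 difference between angiogenic and non angiogenic islets in replicates 4 to 6 (vertical axis) against that in replicates 1 to 3 (horizontal axis) for the 66 guidance genes, coloured by family, filled where called over all 12 arrays and with the dotted line marking equal values. Epha3, Plxnd1 and Slit2 lie farthest from 0 in both sets, and Robo4 lies below the line at 0.62 and 0.36.

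Genes that work with these families as co-receptors, other ligands or intracellular effectors were followed as a list of 47, of which 46 were measured. Of these, 7 were higher in angiogenic islets (15.2%) and 1 was lower (2.17%), against 3.55% and 0.948% of all genes. Their median difference was 0.02. Nrp2, the neuropilin that binds Sema3f and is found on venous and lymphatic endothelium, had levels of 7.91, 8.17 and 8.36 in angiogenic islets and 7.47, 7.59 and 7.67 in non angiogenic islets. The groups did not overlap, and the difference was 0.57 (SE 0.07), or 1.48-fold (limma, adjusted p = 1.57e-04). Nrp1, the neuropilin of Sema3a and a co-receptor of VEGF, had levels of 9.39, 9.57 and 9.71 in angiogenic islets and 9.14, 9.24 and 9.50 in non angiogenic islets. Its groups overlapped and its difference of 0.28 (SE 0.08) missed the threshold (limma, adjusted p = 0.065). Nrp1 passed with the set as a block (adjusted p = 2.77e-04), with array weights (0.0450), after quantile normalization (0.0169), in replicates 1 to 3 alone (0.0384), by the methods' t-test before adjustment (0.00831), and with non angiogenic replicate 4 (0.029) or angiogenic replicate 1 (0.046) left out.

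The netrin receptors Dcc and Neo1 had differences of 0.08 (-0.15 to 0.31) and -0.01 (-0.12 to 0.11), the latter turning to 0.06 in replicates 1 to 3. The Flrt proteins, ligands of Unc5 receptors, went both ways. Flrt2 was higher by 0.49 (SE 0.09, adjusted p = 0.00455 by limma), and Flrt1 was lower, with a difference of -0.33 (SE 0.05, adjusted p = 0.00169 by limma). Flrt1 had levels of 7.86, 7.91 and 8.01 in angiogenic islets and 8.10, 8.30 and 8.35 in non angiogenic islets, so that every angiogenic pool was below every non angiogenic pool.

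Of the 31 intracellular effectors measured, 5 were higher (16.1%), against 3.55% of all genes. Dpysl3, a collapsin response mediator that acts on the cytoskeleton, had levels of 8.13, 8.27 and 8.44 in angiogenic islets and 7.34, 7.49 and 8.00 in non angiogenic islets and a difference of 0.70 (SE 0.10, adjusted p = 7.88e-04 by limma). Its level in non angiogenic islets spread more widely than in angiogenic islets, with SDs of 0.26 and 0.11 over 6 arrays each. The Src family kinase Fyn was higher by 0.44, Rras, a small GTPase that plexins switch off, by 0.34, Vav3, an exchange factor downstream of Eph receptors, by 0.29 and the kinase Fes by 0.23, with adjusted p-values by limma of 0.017, 0.0027, 0.0171 and 0.0169.

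The promoter windows of the families were also read for short motifs on both strands. A window of 250 bases before the start was found for 57 of the 66 genes, in 73 windows, and for 13 of the 15 called genes. The GC box GGGCGG was in 71.2% of the guidance gene windows and in 32.7% of all 32851 windows, and the median GC content was 64.0% against 52.4%. Within the families, 11 of 13 called genes and 32 of 44 other genes had a window with the box. The box was thus frequent among called and uncalled genes of these families.

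The other motifs were no more frequent than among all windows. The ETS-type motif GGAAGT was in 17.8% against 19.7%, the RBPJ-type motif TGGGAA, which can overlap it, in 17.8% against 21.6%, and the hypoxia-type motif ACGTG in 16.4% against 16.6%. The TATA box TATAAA was in 2.74% of guidance gene windows against 12.4%. Its 2 genes, Slit2 and Efnb2, were both among the called genes. In Slit2 the letters stood on the strand of the gene, and in Efnb2 only on the opposite strand. A match in these letters is a description of the window and not a binding site.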

How the data were processed

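RNA of 12 pools of islets was hybridised to Affymetrix mouse gene arrays. The authors computed the deposited log2 values with RMA in Affymetrix Expression Console, per the labels, so background correction, quantile normalization and probe summary were already done. Such values tend to understate large differences, and the level of one gene cannot be set against that of another. The 35556 transcript clusters were named from the platform annotation. Of these, 21789 had a single symbol, 1621 had several and 12146 had none here. The cluster with the highest mean level stood for each of 19938 genes, of which 999 had several clusters, and this choice did not use the groups. The 66 guidance genes had 71 clusters, 5 of them genes with several, and all matched RefSeq by gene ID.

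Groups were compared with limma 3.58.1 in R 4.3.3 (lmFit and eBayes, two-sided, 6 against 6 arrays, no covariate). The p-values of the 19938 genes were adjusted together by Benjamini-Hochberg, and those under 0.05 were called. Intervals are 95% confidence intervals of the difference. The number of arrays limits the precision. The t-test that the study's methods describe, array weights, centring, quantile normalization, a filter on dim genes, replicate and set blocks, each set alone, the acinar level as a covariate and leaving out each array were alternatives. The members, companion genes, marker lists and the split into sets were chosen with earlier results of these data known. Genes named with values were those past the threshold, those the study lists, guidance genes known in vessels, the largest difference in each direction per family, and called companions with Nrp1, Nrp2, Dcc and Neo1. Slit1, Robo3, Ephb1, Epha7, Plxna1, Plxnb1, Plxnb2 and the remaining Sema3, netrin, ephrin and Unc5 genes were added after their values were seen. Promoter sequences are from RefSeq (GRCm38.p6).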

Additional observations from a re-analysis of the deposited data

Results flagged for a closer look

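For 41 named genes, each group of 6 arrays was tested with Dixon's criterion for a single array far from the other 5, which by chance is met by about 1 in 20 groups. Of 82 groups, 3 met it, and all 3 belong to genes called higher in angiogenic islets. Epha3 was 6.85 in angiogenic replicate 4, where the nearest other angiogenic array was 6.49. Epha4 was 7.22 in angiogenic replicate 2, where the nearest was 7.37. Sema7a was 8.06 in non angiogenic replicate 5, where the nearest was 8.28. The 3 calls stood whichever array was left out.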

How the results depend on the processing

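The 15 calls of guidance genes stood with the set of arrays or the replicate number as a block. Beside the 15 higher and 0 lower, other settings gave 9 higher when genes under the median level were dropped, which left 30 of the 66 genes to be tested, and 8 higher in replicates 1 to 3 alone, with fewer arrays. The unpaired t-test of the methods gave 3 lower at an unadjusted p and 1 lower after adjustment, the set block 2 lower and the acinar covariate 1 lower. Leaving out 1 array gave 12 to 15 higher and 0 to 1 lower. Elsewhere the cause was not tested.

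Replicate numbers were not shown to pair the arrays: deviations of same-numbered arrays correlated at 0.43, 0.38, 0.03, 0.54, 0.42 and 0.30 for replicates 1 to 6, and 4 of 12 arrays correlated best with their own number. With the replicate block, 16 guidance genes were higher and 1, Efnb3, was lower, which made 1 ephrin lower and 2 companion genes lower, and Nrp1 passed (adjusted p = 0.00207).

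By family, semaphorins higher fell from 5 to 3 by the adjusted t-test, 3 after median centring and 1 in replicates 1 to 3, and lay between 2 and 4 with 1 array left out. Semaphorins lower came to 1 by the t-test with or without adjustment. Plexins higher fell to 1 by the adjusted t-test, among genes above the median level, and in each set alone. Slits and Robos lower came to 1 by the unadjusted t-test, the set block and the acinar covariate. Eph receptors higher were 5 by the unadjusted t-test and 0 among genes above the median level, where Epha3, Epha4 and Ephb4 were not tested. Ephrins higher were 2 by the unadjusted t-test and 0 in replicates 1 to 3. Ephrins lower came to 1 by the unadjusted t-test and the set block, and lay between 0 and 1 with 1 array left out. Companion genes higher were 14 by the unadjusted t-test and 4 in replicates 1 to 3, and those lower 2 by the unadjusted t-test, 2 with the set block and 0 in replicates 4 to 6.

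Sign changes were seen at differences near 0. Neo1 was 0.0579 in replicates 1 to 3, Ntn1 -0.0108 there and -0.00562 after median centring, and Robo1 0.00890 there and 1.79e-04 with the acinar covariate. With 1 array left out, Neo1 ranged from -0.0378 to 0.0177, Ntn1 from -0.0134 to 0.0430, Robo1 from -0.0528 to 0.0255 and Sema3a from -0.13 to 0.0299.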
